A study of Homo sapiens with 18 samples.

Results

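Transcript levels of 8 genes of ATP-binding cassette (ABC) exporters that carry drugs out of cells were examined in a pair of human lung cancer cell lines after knockdown of YAP or of TAZ. The genes were 6 members of the multidrug resistance protein (MRP) subfamily (ABCC1, ABCC2, ABCC3, ABCC4, ABCC5 and ABCC10), ABCB1, which encodes P-glycoprotein, and ABCG2, which encodes the breast cancer resistance protein. They were taken by gene symbol as the rows present in the tables of both lines, 8 of 22219 distinct symbols in all, and ABCC3 served as the reference member. All 8 passed the filter on low counts in each line.

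Both are non-small cell lung cancer lines: A549 derives from an adenocarcinoma and H1299 from a nodal metastasis. Cells of each line had received 30 nM of a control siRNA (siControl), of an siRNA pool against YAP (gene YAP1, siYAP) or of an siRNA pool against TAZ (gene WWTR1, siTAZ) for 48 h, and the last 18 h were without serum in every group, controls included. Each of the 6 groups had 3 poly(A) RNA-seq libraries (n = 3 throughout, 18 in all). Knockdown was transient and by 1 pool per target. The media differed (DMEM for A549, RPMI-1640 for H1299), and each line has its own table, so line, medium and experiment cannot be told apart. The labels do not say whether replicates were separate cultures, so the spread that p-values rest on may be technical.

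ABC exporters are membrane proteins that use ATP to move substrates across a membrane, and those studied here lower the amount of drug that stays in a cell. MRP proteins export organic anions, above all conjugates with glutathione, glucuronate or sulphate made by conjugating enzymes inside the cell, while P-glycoprotein and ABCG2 also carry many unconjugated drugs. YAP and TAZ are paralogous coactivators that reach DNA through TEAD transcription factors and are held back by the Hippo kinases.

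Levels are given as CPM, a gene's reads per M assigned reads of its library, scaled within each line, with the libraries in the order of replicates 1, 2 and 3. Changes are log2 ratios ± the standard error of the fit, tested with edgeR's quasi-likelihood test and called at an adjusted p below 0.05 over all genes tested. Libraries with the same replicate number deviated together from their group means, so each comparison was also fitted with the replicate number as a block, and both values are given for a member where its call differs. H1299 libraries held 16.8 to 20.8 M assigned reads and A549 libraries 10.7 to 45 M. The siYAP pool left 18.0% of the control mean of YAP1 in H1299 and 29.7% in A549, and the siTAZ pool left 19.2% and 32.7% of WWTR1. In H1299, WWTR1 was at 70.4% of the control mean under siYAP, below all controls in each library (-0.51 ± 0.26, adjusted p = 0.204; 0.0398 with the block). YAP1 was at 123% there under siTAZ, above all controls in each library (0.30 ± 0.13, adjusted p = 0.117; 0.0316 with the block). In H1299, VIM stood at 2330 to 3510 CPM, KRT8 at 140 to 223, KRT18 at 177 to 269 and CDH2 at 35.2 to 59.3 CPM. The epithelial genes EPCAM and KRT19 were at or below 0.66 and 0.609 CPM there, and CDH1 was not listed. In A549, KRT8 stood at 2350 to 3720 CPM, KRT18 at 781 to 1750, KRT19 at 227 to 314 and CDH1 at 41.0 to 70.1 CPM. VIM was at 445 to 639 and CDH2 at 14.9 to 28.2 CPM in A549, and EPCAM was low there as well (0.836 to 4.38 CPM). Of 20 markers of other cell types, 5 were listed in H1299, with a summed level of 4.53 to 5.0 CPM in the controls, 8.12 to 10.2 under siYAP and 6.96 to 8.11 under siTAZ, most of it COL1A1 (2.86 to 7.17 CPM). In A549 6 of the 20 were listed, and their sum was 10.7 to 14.5, 13.5 to 17.8 and 12.8 to 19.4 CPM in the same order. The part of these markers in the results was not tested. In bulk libraries, fewer cells that express a gene and less RNA per cell cannot be told apart.

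The genes lie on 8 different chromosomes. In GENCODE release 29 (GRCh38), ABCC3 spans chromosome 17, 50634777 to 50692252, and no other annotated gene overlaps it. ABCC10 (chromosome 6, 43427366 to 43450430) shares 79 exonic bases with DLK2 on the opposite strand, and reads from those bases cannot be assigned because the use of strand in counting is not given. ABCC5 (chromosome 3, 183919934 to 184018015) and ABCB1 (chromosome 7, 87503633 to 87713323) overlap genes on the opposite strand but share no exonic bases with them. ABCC1 (chromosome 16, 15949577 to 16143074), ABCC2 (chromosome 10, 99782640 to 99852594), ABCC4 (chromosome 13, 95019829 to 95301475) and ABCG2 (chromosome 4, 88090264 to 88231322) share no exonic bases with another gene.

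Promoter windows of 300 bases, from 250 before to 50 after a RefSeq start site (GRCh38.p14), were found for 6 of the 8 members, with 12 windows in all. Those of ABCC5, ABCC10 and ABCB1 are shown because these were the members with a window whose siYAP change in H1299 was called by both edgeR and DESeq2 fitted with the replicate block, ABCC5 and ABCC10 upward and ABCB1 downward. The ABCC5 window is chr3:184017835-184018134 on the minus strand. The ABCC10 windows are chr6:43427291-43427590 and chr6:43427613-43427912 on the plus strand, and the ABCB1 windows are chr7:87713246-87713545 and chr7:87600835-87601134 on the minus strand. Capitals mark every match, on either strand, to the motif letters described after the sequences, and each sequence runs 5′ to 3′ along the gene.
ABCC5: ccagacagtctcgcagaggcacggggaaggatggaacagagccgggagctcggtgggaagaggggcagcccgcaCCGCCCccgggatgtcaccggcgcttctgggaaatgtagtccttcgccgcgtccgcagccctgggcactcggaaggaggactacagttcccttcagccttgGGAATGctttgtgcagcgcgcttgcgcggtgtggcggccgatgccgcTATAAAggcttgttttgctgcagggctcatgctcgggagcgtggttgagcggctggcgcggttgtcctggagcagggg
ABCC10, window at the upstream start site: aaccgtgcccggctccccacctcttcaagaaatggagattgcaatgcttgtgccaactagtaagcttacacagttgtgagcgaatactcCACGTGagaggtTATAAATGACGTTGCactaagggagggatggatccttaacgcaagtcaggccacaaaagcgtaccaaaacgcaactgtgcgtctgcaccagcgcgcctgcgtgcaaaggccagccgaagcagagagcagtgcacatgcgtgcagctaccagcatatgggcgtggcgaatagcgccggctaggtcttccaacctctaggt
ABCC10, window at the downstream start site: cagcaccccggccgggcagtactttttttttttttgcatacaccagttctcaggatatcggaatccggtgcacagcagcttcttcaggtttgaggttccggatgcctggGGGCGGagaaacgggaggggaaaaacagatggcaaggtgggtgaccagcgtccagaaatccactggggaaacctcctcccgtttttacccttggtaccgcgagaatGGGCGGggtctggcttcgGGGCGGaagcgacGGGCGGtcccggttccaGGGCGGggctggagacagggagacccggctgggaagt
ABCB1, window at the upstream start site: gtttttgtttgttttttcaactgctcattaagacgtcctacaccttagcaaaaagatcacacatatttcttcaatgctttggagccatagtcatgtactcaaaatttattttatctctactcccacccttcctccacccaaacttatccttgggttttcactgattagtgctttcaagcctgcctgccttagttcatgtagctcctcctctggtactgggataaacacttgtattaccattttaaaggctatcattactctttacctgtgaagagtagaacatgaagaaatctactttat
ABCB1, window at the downstream start site: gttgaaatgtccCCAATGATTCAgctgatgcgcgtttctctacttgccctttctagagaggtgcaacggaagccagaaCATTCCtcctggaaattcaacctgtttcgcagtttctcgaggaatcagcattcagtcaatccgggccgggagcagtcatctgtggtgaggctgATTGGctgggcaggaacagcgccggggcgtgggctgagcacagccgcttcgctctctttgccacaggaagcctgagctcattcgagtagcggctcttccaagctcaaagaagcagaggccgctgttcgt

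The motifs searched were the TEAD motif GGAATG, which 14% of 35114 RefSeq promoter windows of the same length hold, the AP-1 motif TGANTCA (7.71%), the antioxidant response motif TGACNNNGC (13.3%), CCAAT (34.6%), the GC box GGGCGG (45%), the E-box CACGTG (7.26%) and TATAAA (11.5%). Positions count from the start site and name the leftmost base of the match. ABCC5 held GGAATG at -75, TATAAA at -28 and a GC box on the opposite strand at -176. The upstream ABCC10 window held CACGTG at -161, TATAAA at -149 and TGACNNNGC at -143, the last pair directly next to each other. The downstream ABCC10 window held 5 GC boxes, at -141, -35, -17, -4 and 14. The downstream ABCB1 window held GGAATG on the opposite strand at -172, and CCAAT at -238 and, on the opposite strand, at -79. It also held TGANTCA at -234, which overlaps the CCAAT at -238 by 1 base, and the upstream ABCB1 window held none of the motifs. A match describes letters and does not show that a factor binds there.

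ABCC3 encodes MRP3, which exports glucuronides and bile acids across the basolateral membrane and also carries methotrexate and etoposide. In H1299 it rose after either knockdown, more after that of TAZ. Its level was 4.70, 8.70 and 5.45 CPM in the controls, 14.1, 11.2 and 12.8 CPM under siYAP and 29.3, 16.9 and 35.7 CPM under siTAZ. The 3 groups did not overlap: each siYAP library lay above each control, and each siTAZ library above each siYAP library. The smallest read count behind these values was 82, in a control.

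The log2 change of ABCC3 was 2.12 ± 0.26 under siTAZ (adjusted p = 0.000401), a 4.34-fold ratio of means, and the call held without any of the 9 libraries in turn. Under siYAP it was 1.02 ± 0.27 (adjusted p = 0.0197), a 2.02-fold ratio of means. It no longer passed when siControl 1 (0.84, adjusted p = 0.0919), siControl 3 (0.91, 0.0752), siYAP 1 (0.92, 0.0823) or siYAP 3 (1.02, 0.062) was left out, nor without replicate number 1 (0.75, 0.273) or 3 (0.92, 0.169) in all groups, nor with DESeq2 fitted with the block (0.99, 0.0622). With the block, leaving out siControl 1 (0.75, 0.0863), siControl 3 (0.77, 0.0659) or siYAP 1 (0.89, 0.0545) ended it. Tested directly, siTAZ exceeded siYAP by 1.10 ± 0.24 (adjusted p = 0.00975), and this was lost without siTAZ 3 (0.87, 0.0562) and without replicate number 1 (1.14, 0.0659) or 3 (0.87, 0.209) in all groups. The siYAP and siTAZ comparisons share the same control libraries.

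Replicate 2 stood apart for ABCC3 in H1299. Its control was the highest of the 3 and its knockdown libraries the lowest, so that the ratio to the same-numbered control was 1.28 under siYAP, against 3.01 and 2.35 for replicates 1 and 3, and 1.94 under siTAZ, against 6.24 and 6.55. The targeted genes fell least in the same libraries: YAP1 was left at 24% of the control mean in siYAP 2, against 15.7% and 14.4%, and WWTR1 at 32.2% in siTAZ 2, against 14.1% and 11.3%. Whether the weaker knockdown accounts for the smaller ratio was not tested.

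In A549, ABCC3 was an abundant transcript and moved little. Its level in the controls was 591.8, 529.2 and 575.0 CPM, with 670.2, 606.3 and 658.5 CPM under siYAP and 645.8, 622.7 and 651.2 CPM under siTAZ. All knockdown libraries lay above all controls, while the siYAP and siTAZ libraries overlapped. The log2 change was 0.19 ± 0.08 under siYAP and 0.18 ± 0.08 under siTAZ, neither called without the block (adjusted p = 1 in each), and 0.19 ± 0.04 and 0.18 ± 0.04 with it (adjusted p = 0.00148 and 0.000934). Those blocked calls held without each of the 9 libraries in turn. The 6 same-numbered ratios lay between 1.09 and 1.18.

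The ABCC3 response to siTAZ was larger in H1299 than in A549 by 1.94 ± 0.29 on the log2 scale (interaction term, adjusted p = 0.0164; 4.11e-05 with the block). Without the block it was no longer called when siControl 1 (1.77, adjusted p = 0.0578) or siControl 3 (1.84, 0.0587) of H1299 was left out, nor without replicate number 1 (1.69, 0.748) or 3 (1.61, 0.205) in all groups. For siYAP the difference was 0.83 ± 0.30 (adjusted p = 0.304), and 0.82 ± 0.24 with the block (adjusted p = 0.0329), a call lost with DESeq2 fitted with the block (0.81, 0.181). Of all genes tested, 0.379% were called for a line difference in the siTAZ effect and 0.0822% for one in the siYAP effect, and 17.7% and 10.8% with the block. The lines started from different levels, which the plot of ABCC3 by group shows.

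**Figure D1:**
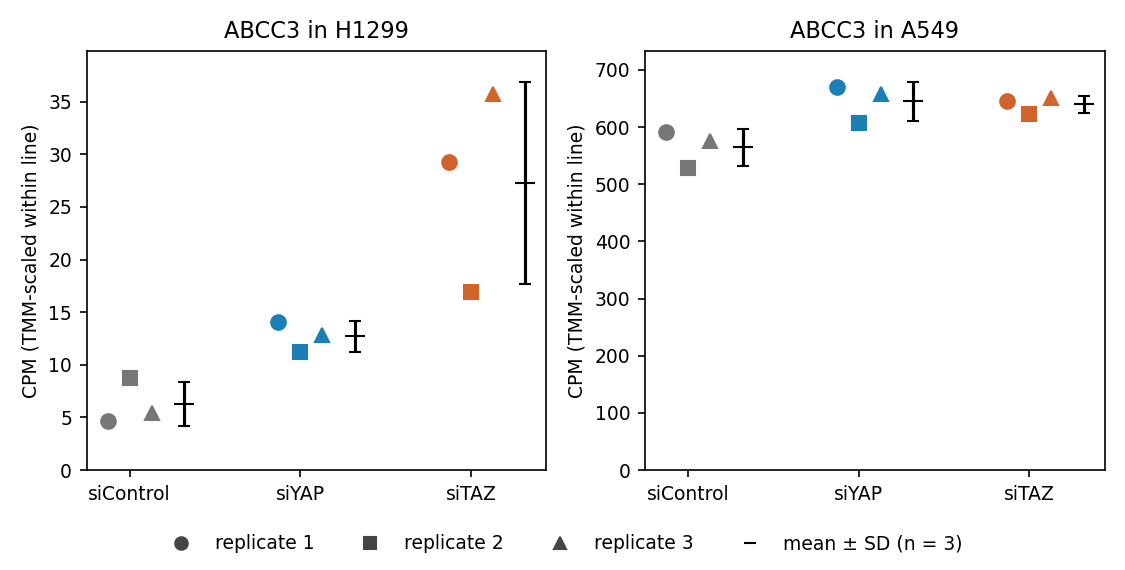
ABCC3 level in CPM (linear axes from 0, a separate scale for each line) by siRNA group, with a symbol for each of the 3 libraries, shaped by replicate number, and the mean ± SD. H1299 libraries rise from 4.70 to 8.70 CPM in the controls to 16.9 to 35.7 CPM under siTAZ with no overlap between the groups, while all A549 libraries lie between 529.2 and 670.2 CPM.

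Among the other members in H1299, siYAP moved ABCC10 and ABCC5 upward and ABCB1 downward, and siTAZ did not move ABCC10 or ABCC5 upward. Without the block, 3 of the 8 members were called under siYAP (2 higher, 1 lower), where 16.6% of all genes tested were called, 1 of 8 under siTAZ (23.3% of all genes) and 2 of 8 between siTAZ and siYAP (11.7%). With the block 5 of 8 were called in each of these comparisons, against 28.3%, 35.5% and 21.5% of all genes. The libraries of the compared groups did not overlap for 5 of 8 members under siYAP (36.1% of all genes), 2 of 8 under siTAZ (38.7%) and 4 of 8 between the pools (29.6%). The siTAZ counts without the block and without overlap lie below the share over all genes. The median log2 change of the members was 0.28 under siYAP and 0.01 under siTAZ, and that of all genes 0.01 in each.

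ABCC10 encodes MRP7, an exporter of taxanes, and it was the member most clearly split between the pools. Its level was 82.7, 75.4 and 90.9 CPM in the controls, 121.9, 103.6 and 106.2 CPM under siYAP and 74.4, 62.3 and 71.2 CPM under siTAZ. Every siYAP library was above and every siTAZ library below all controls. The change was 0.41 ± 0.10 under siYAP (adjusted p = 0.0135), lost without siControl 1 (0.41, 0.0582) or siYAP 1 (0.33, 0.0803) and without replicate number 1 (0.33, 0.226) or 3 (0.51, 0.106) in all groups, but called with the block (0.00109). Under siTAZ it was -0.26 ± 0.10 (adjusted p = 0.0745), and called with the block (0.0143), where the call was lost without siControl 3 (-0.19, 0.116), siTAZ 2 (-0.24, 0.0594) or siTAZ 3 (-0.25, 0.0857). The difference between siTAZ and siYAP was -0.67 ± 0.10 (adjusted p = 0.00107), and it was called without each of the 9 libraries in turn.

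ABCC5 encodes MRP5, an exporter of cyclic GMP and of nucleotide analogues. Its level in the controls was 107.3, 70.8 and 110.9 CPM, with 152.7, 111.3 and 129.2 CPM under siYAP and 105.3, 79.0 and 99.4 CPM under siTAZ. All siYAP libraries exceeded all controls, the lowest of them only narrowly, and the siTAZ libraries lay among the controls. The siYAP change was 0.44 ± 0.16 without the block (adjusted p = 0.0764) and 0.46 ± 0.08 with it (adjusted p = 0.00095), and the blocked call held without each library in turn. Between siTAZ and siYAP the difference was -0.47 ± 0.16 (adjusted p = 0.0762; 0.000807 with the block), and for siTAZ against control -0.03 ± 0.16 (adjusted p = 0.921).

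ABCC4 encodes MRP4, which exports cyclic nucleotides and prostaglandins. Its level was 109.9, 77.5 and 102.4 CPM in the controls, 91.2, 78.8 and 77.6 CPM under siYAP and 88.5, 66.3 and 71.9 CPM under siTAZ. The groups overlapped, but each siTAZ library was below the control of its number. The siTAZ change was -0.36 ± 0.13 (adjusted p = 0.0687) without the block and -0.35 ± 0.08 with it (adjusted p = 0.00397), a call kept without each library in turn. Under siYAP ABCC4 was not called in either fit (-0.23 ± 0.13, adjusted p = 0.261, and 0.0563 with the block).

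ABCC1 encodes MRP1, which carries glutathione conjugates and anthracyclines, and ABCC2 encodes MRP2, its apical counterpart that secretes conjugated bilirubin into bile. ABCC1 ranged from 94.4 to 133.5 CPM over the 9 libraries with overlapping groups and was called in no H1299 comparison in either fit. ABCC2 was scarce, at 5.05, 4.77 and 4.27 CPM in the controls, 6.57, 5.55 and 6.98 CPM under siYAP and 5.39, 3.86 and 5.38 CPM under siTAZ. The siYAP libraries were above both other groups. Its siYAP change of 0.44 ± 0.17 was not called without the block (adjusted p = 0.0924) and was called with it (0.0435). The blocked call was lost with DESeq2 fitted with the block (0.42, 0.127). It held in only 3 of the 9 fits that each left out 1 library, and was lost without siControl 1 (0.44, 0.145), siControl 3 (0.29, 0.273), siYAP 1 (0.47, 0.108), siYAP 3 (0.38, 0.16), siTAZ 1 (0.43, 0.0673) or siTAZ 3 (0.45, 0.0561).

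ABCB1 encodes P-glycoprotein, which exports taxanes, vinca alkaloids and anthracyclines. Its controls stood at 25.7, 17.6 and 19.0 CPM, its siYAP libraries at 15.2, 13.1 and 11.6 CPM and its siTAZ libraries at 22.2, 14.7 and 13.9 CPM. All siYAP libraries were below all controls, while siTAZ 1 overlapped the controls. ABCB1 fell by 0.64 ± 0.19 on the log2 scale under siYAP (adjusted p = 0.032; 0.00062 with the block). Without the block, the call needed siControl 1 (-0.46, 0.158 when left out), siYAP 2 (-0.63, 0.0585) and siYAP 3 (-0.55, 0.137), and it was lost without replicate number 1 (-0.58, 0.0881) or 3 (-0.61, 0.2) in all groups. The siTAZ change was -0.30 ± 0.19 (adjusted p = 0.258), and -0.31 ± 0.10 with the block (0.0301), where it was lost with DESeq2 (-0.31, 0.0555) and without siControl 1 (-0.30, 0.127), siControl 3 (-0.26, 0.138), siTAZ 2 (-0.27, 0.109) or siTAZ 3 (-0.24, 0.196). The difference between the pools was called with the block only (0.33 ± 0.10, adjusted p = 0.0372; 0.34 ± 0.19, 0.271 without it). That blocked call was lost with DESeq2 (0.33, 0.061). It held in 4 of 9 fits that left out a library, and was lost without siYAP 1 (0.25, 0.192), siYAP 3 (0.34, 0.104), siTAZ 1 (0.25, 0.23), siTAZ 2 (0.37, 0.0572) or siTAZ 3 (0.39, 0.0668).

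ABCG2 encodes a transporter that works as a dimer and exports topotecan, mitoxantrone and urate. It was near the lower end of detection in H1299, with 30 to 130 reads per library. Its level in the controls was 3.38, 1.79 and 3.87 CPM, with 3.26, 2.08 and 3.52 CPM under siYAP and 7.07, 2.91 and 4.67 CPM under siTAZ. The groups overlapped, and within each replicate number the siTAZ library was the highest. The siTAZ change was 0.68 ± 0.33 without the block (adjusted p = 0.143) and 0.68 ± 0.19 with it (0.0129), which was lost without siControl 1 (0.57, 0.109) or siTAZ 1 (0.44, 0.161). Against siYAP it was 0.71 ± 0.32 (adjusted p = 0.174; 0.0152 with the block, lost without siYAP 1, 0.56 and 0.115, or siTAZ 1, 0.46 and 0.186), and siYAP against control was -0.03 ± 0.34 (0.964).

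**Figure D2:**
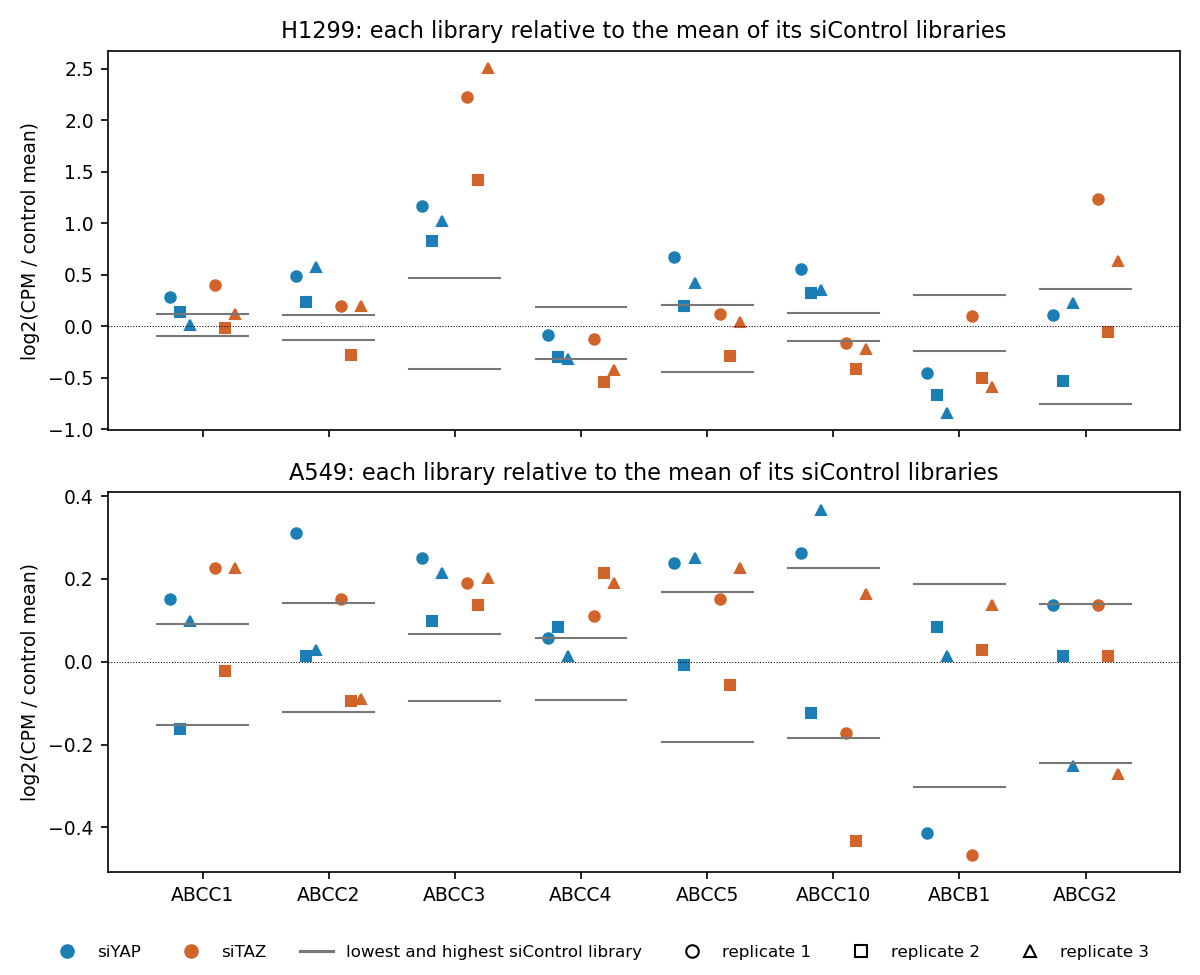
Level of each of the 8 genes in every siYAP and siTAZ library relative to the siControl mean of its line, as log2 of the CPM ratio, with grey lines at the lowest and highest siControl library. In H1299, ABCC3 stands apart under siTAZ, ABCC10 lies above the control range under siYAP and below it under siTAZ, and ABCB1 lies below it under siYAP; in A549, plotted on a narrower axis, ABCC3 is above the control range in all 6 knockdown libraries and ABCC4 in all 3 siTAZ libraries.

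In A549, no member was called in any comparison by edgeR without the block nor by DESeq2 without it. Of all genes tested, edgeR called 0.00625% under siYAP, 0.00625% under siTAZ and 0.0125% between the pools. At an unadjusted p below 0.05 stood 1 member under siYAP, 2 under siTAZ and 0 between the pools. The share of all genes at that level was not counted, so nothing is read from these counts. With the block, 2 of 8 members were called under siYAP and 3 of 8 under siTAZ, all higher, and 2 of 8 were lower in siTAZ than in siYAP, against 5.68%, 13.3% and 7.04% of all genes. The groups did not overlap for 1 of 8 members under siYAP (7.2% of all genes), 2 of 8 under siTAZ (9.28%) and 1 of 8 between the pools (8.24%). The changes that were called were all small, from 0.15 to 0.19 in size against control.

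ABCC4 in A549 stood at 113.4, 123.9 and 125.8 CPM in controls, 125.4, 128.5 and 122.3 CPM under siYAP and 130.8, 140.4 and 137.8 CPM under siTAZ. Every siTAZ library was above every other A549 library for this gene. The siTAZ change was 0.17 ± 0.04 with the block (adjusted p = 0.00287; 1 without it) and was lost without siControl 1 (0.14, 0.0523). In H1299 the blocked siTAZ change of ABCC4 had the opposite sign, and the difference between the lines was -0.53 ± 0.09 with the block (adjusted p = 0.000604; -0.53 ± 0.17, 0.152 without it). That blocked difference was called without each of the 18 libraries in turn.

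The A549 controls held ABCC1 at 466.6, 394.0 and 454.2 CPM, and the siTAZ libraries at 512.9, 431.7 and 512.3 CPM. The groups overlapped through replicate 2, and within each number the siTAZ library was higher, by 1.10, 1.10 and 1.13 times. The change was 0.15 ± 0.04 with the block (adjusted p = 0.00636; 1 without it), lost without siTAZ 2 (0.14, 0.0678) or siTAZ 3 (0.14, 0.0605). ABCC5 had 60.3, 52.7 and 67.8 CPM in the controls against 71.4, 59.9 and 72.0 CPM in the siYAP libraries, again higher within each number. Its change was 0.17 ± 0.12 (adjusted p = 1) and, with the block, 0.17 ± 0.05 (adjusted p = 0.0186). The blocked call was lost with DESeq2 fitted with the block (0.16, 0.116) and without siControl 1 (0.14, 0.118), siControl 2 (0.16, 0.143), siYAP 1 (0.15, 0.122) or siYAP 2 (0.17, 0.179).

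ABCC10, which the pools split in H1299, stood in A549 at 22.9, 21.3 and 28.3 CPM in controls, 29, 22.2 and 31.3 CPM under siYAP and 21.4, 17.9 and 27.1 CPM under siTAZ. The groups overlapped, but siTAZ was the lowest and siYAP the highest in each replicate number. The difference between siTAZ and siYAP was -0.29 ± 0.06 with the block (adjusted p = 0.00163; 1 without it), and it was called without each library in turn. ABCC2 was the other gene lower in siTAZ than in siYAP (-0.13 ± 0.04 with the block, adjusted p = 0.0359; -0.13 ± 0.12, adjusted p = 1 without it), between 1204.8 and 1623.6 CPM over the 9 libraries. Its call held in 3 of 9 fits that left out a library, and was lost without siYAP 1 (-0.11, 0.164), siYAP 2 (-0.13, 0.208), siYAP 3 (-0.14, 0.0694), siTAZ 1 (-0.13, 0.144), siTAZ 2 (-0.14, 0.135) or siTAZ 3 (-0.12, 0.217).

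ABCB1 and ABCG2 were called in no A549 knockdown comparison in either fit. ABCB1 ranged from 3.73 to 5.86 CPM and ABCG2 from 143.8 to 191.6 CPM, each with overlapping groups. In A549 both moved with the replicate number: ABCG2 was lowest in replicate 3 of every group and ABCB1 in replicate 1. For ABCB1 the siYAP effect differed between the lines with the block (-0.57 ± 0.15, adjusted p = 0.019; -0.59 ± 0.31, 0.511 without it), and the siTAZ effect on ABCG2 did so too (0.71 ± 0.16, 0.00504; 0.71 ± 0.36, 0.366 without it). In both cases H1299 held the larger change.

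**Figure D3:**
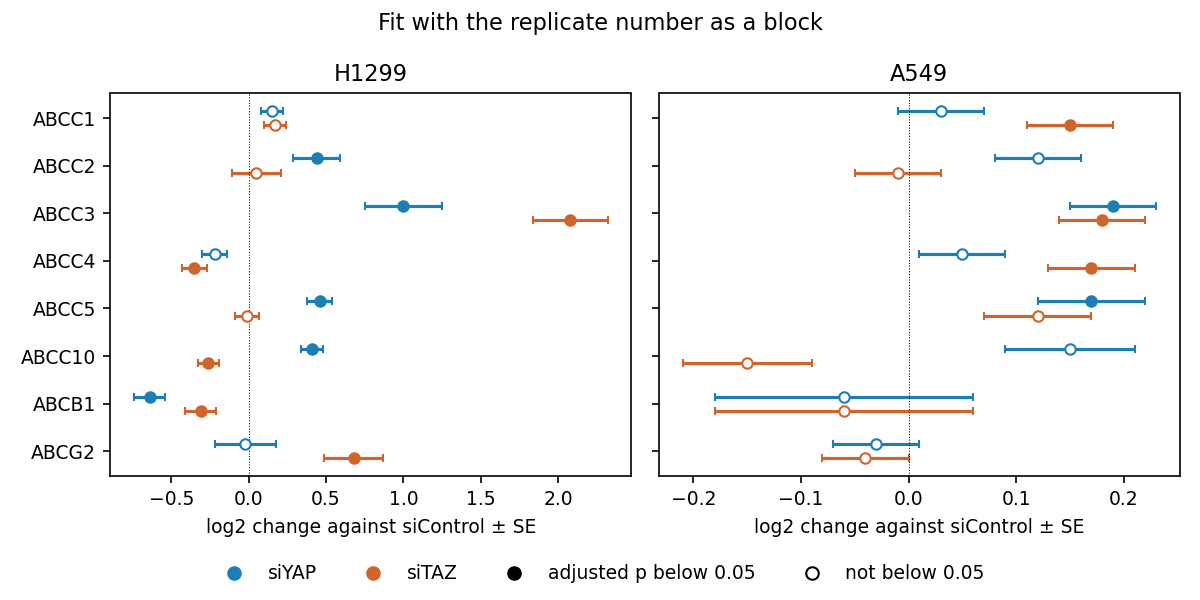
Log2 change ± SE of the 8 genes under siYAP and under siTAZ, each against siControl of the same line. Values are from the fit with the replicate number as a block, with filled symbols for an adjusted p below 0.05. ABCC3 under siTAZ in H1299 (2.08) exceeds every other plotted value, and the filled A549 values lie between 0.15 and 0.19.

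The control libraries of the lines were compared on a scale fitted to all 18 libraries. All 8 members differed between H1299 and A549, where 74.7% of all genes tested did (81.2% with the block). The libraries of 7 members did not overlap between the lines, against 76.9% of all genes. ABCC2, ABCC3 and ABCG2 differed most, each far higher in A549. ABCC2 stood at 4.63, 4.37 and 3.90 CPM in H1299 and at 1630, 1380 and 1480 CPM in A549, 349-fold higher there (log2 -8.44 ± 0.16, adjusted p = 1.98e-17). ABCC3 stood at 4.31, 7.97 and 4.98 CPM against 667, 608 and 657 CPM, 112-fold higher in A549 (-6.81 ± 0.25, 5.65e-14). ABCG2 stood at 3.10, 1.64 and 3.54 CPM against 206, 220 and 168 CPM, 71.7-fold higher in A549 (-6.15 ± 0.27, 7.35e-13).

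ABCC1 was 5.38-fold and ABCC4 1.56-fold higher in A549 (-2.43 ± 0.12, adjusted p = 5.29e-12, and -0.64 ± 0.12, adjusted p = 0.000103). ABCB1, at 23.6, 16.2 and 17.3 CPM in H1299 and 4.71, 6.21 and 6.70 CPM in A549, was 3.24-fold higher in H1299 (1.69 ± 0.22, adjusted p = 1.46e-06), and ABCC10 2.76-fold (1.47 ± 0.15, adjusted p = 9.37e-08). None of these groups overlapped. ABCC5 was 1.28-fold higher in H1299 (0.37 ± 0.16, adjusted p = 0.0495; 5.00e-05 with the block), but 1 H1299 control, at 64.8 CPM, lay below 2 of the A549 controls, at 67.9 and 77.5 CPM. That call without the block was lost with no filter on low counts (0.36, 0.0523) and it held in only 4 of the 18 fits that left out 1 library; it was lost, for example, without siControl 1 (0.28, 0.175) or siControl 3 (0.26, 0.206) of H1299.

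Levels of different genes were compared per length, as CPM per kb of exonic bases, in the controls. In A549 the order was ABCC2 (168 ± 15.5, SD), ABCC3 (58.8 ± 3.37), ABCC1 (57.9 ± 5.13), ABCG2 (34.4 ± 4.69), ABCC4 (14.0 ± 0.771), ABCC5 (5.27 ± 0.659), ABCC10 (2.99 ± 0.456) and ABCB1 (0.887 ± 0.15). ABCC3 and ABCC1 overlapped, and all other neighbours in the order did not. ABCC2 alone made up 49.0% of the sum of the 8 and lay above 99.0% of the genes tested.

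In H1299 the order was ABCC1 (13.4 ± 1.05 CPM per kb), ABCC4 (11.2 ± 1.96), ABCC10 (10.3 ± 0.961), ABCC5 (8.42 ± 1.94), ABCB1 (3.58 ± 0.749), ABCC3 (0.653 ± 0.221), ABCC2 (0.599 ± 0.0503) and ABCG2 (0.598 ± 0.216). Each neighbour among the upper 4 overlapped the next, as did the lowest 3. With the longest annotated transcript as the length, a setting added after seeing the data, the upper 4 were in the order ABCC10, ABCC5, ABCC4 and ABCC1, so their order is not settled, while the A549 order was the same. ABCC3 lay above 17.9% of the genes tested in the H1299 controls, 27.6% under siYAP and 42.2% under siTAZ. At its highest, under siTAZ, its 2.84 ± 0.997 CPM per kb made up 5.85% of the sum of the 8.

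**Figure D4:**
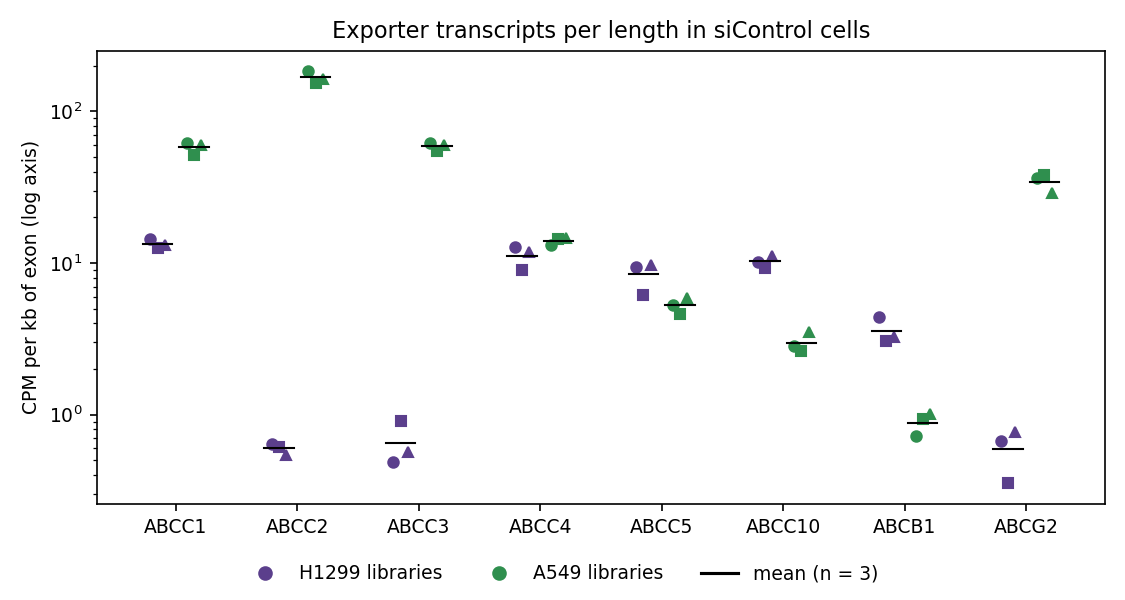
Level of each of the 8 genes in the siControl libraries of H1299 and A549, as CPM per kb of exonic bases on a log axis, with 1 point per library. ABCC2, ABCC3 and ABCG2 lie below 1 CPM per kb in all H1299 libraries and between 29.1 and 184 in A549, while ABCC10 and ABCB1 are higher in H1299.

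The replicate number moved many members together in H1299. Of the 24 combinations of 8 members and 3 groups, replicate 2 was the lowest library in 18 and replicate 1 the highest in 17. In A549 replicate 2 was the lowest in 15 of 24. The labels give a shared prefix to the same-numbered libraries of each line, but no meaning for the number. The median log2 change of all genes lay between -0.07 and 0.04 in 3 classes of transcript length in every H1299 comparison.

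Genes whose pattern was most like that of ABCC3 were sought by Pearson correlation of log2 CPM relative to the control mean of the line. The 9566 candidates were protein-coding genes whose mean reached 5 CPM in both lines. That mean and the log2 CPM were on the joint scale fitted to all 18 libraries, which differs from the scale within each line. Over the 18 libraries they were ZNF251 (r = 0.959), NBEA (0.958), GRAMD4 (0.955), ZMIZ1 (0.951) and PIK3CD (0.948). NBEA stood at 19.0 ± 2.74, 25.2 ± 0.141 and 31.4 ± 4.30 CPM in the control, siYAP and siTAZ groups of H1299 and at 36.3 ± 3.72, 36.8 ± 3.73 and 40.9 ± 2.50 CPM in A549. Within a line, candidates had to reach 5 CPM in that line only, which left 10467 in H1299 and 10489 in A549. Within H1299 the most alike over 9 libraries were NBEA (0.99), KDM5C (0.988) and MCC (0.981), and within A549 ADGRG1 (0.971), HECTD2 (0.961) and CACNA1H (0.92). Of the 5 other members that reached 5 CPM in both lines on the joint scale, r over the 18 libraries ran from -0.706 for ABCC4 to 0.427 for ABCC1. ABCC2 and ABCG2 were not among those 9566 candidates. The points share their libraries and their control means, so these correlations are a description.

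Other genes of drug handling were counted in lists. Their shares stand against 16.6% of all genes called under siYAP and 23.3% under siTAZ in H1299, and against 28.3% and 35.5% with the block. Of 24 other ABC transporters tested in H1299, 7 rose and 0 fell under siYAP (29.2%, with a median log2 change of 0.21 against 0.01 for all genes), and 3 rose and 3 fell under siTAZ (25.0%, median 0.10). With the block the shares were 37.5% and 45.8%. Under siYAP, ABCA3, a lipid exporter of lung lamellar bodies, went from 170 to 233 CPM (0.45 ± 0.10, adjusted p = 0.00869), and ABCA7 and ABCC6 rose by 0.40 ± 0.10 and 0.92 ± 0.25. Under siTAZ, ABCA1, the cholesterol exporter, went from 22.6 to 60.2 CPM (1.41 ± 0.15, adjusted p = 0.000325) and ABCC6 from 1.76 to 3.76 CPM (1.10 ± 0.24, 0.00672). ABCE1, a ribosome recycling factor that is no exporter, fell from 85.8 to 58.2 CPM (-0.56 ± 0.08, 0.001).

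Uptake carriers bring drugs and organic ions into the cell. Of 16 tested in H1299, 3 rose and 0 fell under siYAP (18.8%), and 3 rose and 4 fell under siTAZ (43.8%, median -0.16). The first share was near that of all genes, and with the block the shares were 37.5% and 68.8%. SLC22A18, an organic cation transporter, rose under siYAP from 67.5 to 104 CPM (0.63 ± 0.10, adjusted p = 0.0022) and under siTAZ by 0.44 ± 0.10 (0.00913). SLC46A3, a lysosomal carrier, rose under siYAP by 0.61 ± 0.13 (0.00879), and SLC22A5, the carnitine transporter, under siTAZ by 0.64 ± 0.12 (0.00235). SLCO4A1, an organic anion transporter, fell under siTAZ by 0.79 ± 0.22 (0.0191).

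Of 16 conjugating enzymes, which make MRP substrates, 3 rose and 1 fell under siYAP (25.0%) and 2 rose and 1 fell under siTAZ (18.8%), and with the block 25.0% were called under each. GSTA4, a glutathione transferase, rose by 0.40 ± 0.12 and 0.47 ± 0.12 (adjusted p = 0.0384 and 0.0141), and TPMT, which methylates thiopurines, fell by 0.38 ± 0.10 and 0.40 ± 0.10 (0.0233 and 0.0145). Of 22 genes of glutathione supply, 2 rose and 4 fell under each pool (27.3% in each), and with the block 31.8% and 54.5% were called. Among them SLC7A11, the cystine importer, fell from 13.6 to 7.64 CPM under siYAP (-0.84 ± 0.20, 0.0118) and to 6.18 CPM under siTAZ (-1.14 ± 0.20, 0.00202).

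Of 39 transcription factors listed as regulators of drug transporters, 3 rose and 3 fell under siYAP (15.4%), and 8 rose and 5 fell under siTAZ (33.3%). With the block the shares were 30.8% and 35.9%. NR1H3, the liver X receptor alpha, rose under siYAP from 6.40 to 11.1 CPM (0.80 ± 0.14, adjusted p = 0.00339). AHR, the aryl hydrocarbon receptor, rose under siTAZ from 10.8 to 16.3 CPM (0.59 ± 0.11, 0.00249), and MYC fell from 137 to 70.7 CPM (-0.96 ± 0.11, 0.000334). MYC also fell under siYAP, to 98.0 CPM (-0.49 ± 0.11, adjusted p = 0.0112). Of 23 genes that anchor or place transporters in the membrane, 0 rose and 2 fell under siYAP (8.7%), and 1 rose and 3 fell under siTAZ (17.4%). With the block, 1 rose and 7 fell under siYAP (34.8%), and 2 rose and 4 fell under siTAZ (26.1%). CAV1, caveolin 1, fell by 0.63 ± 0.10 and 0.72 ± 0.10 (0.00191 and 0.000757), and EZR, ezrin, which links MRP2 and P-glycoprotein to actin, fell from 955 to 748 CPM under siTAZ (-0.35 ± 0.10, 0.0236). Of 18 YAP/TAZ target genes, 7 fell and 1 rose under siYAP (44.4%) and 6 fell and 1 rose under siTAZ (38.9%), and with the block 8 fell and 1 rose under siYAP and 10 fell and 1 rose under siTAZ.

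In A549 no gene of these lists was called without the block by edgeR in a knockdown comparison. With it, 3 of 28 other ABC transporters were called under siYAP, all higher (10.7%, against 5.68% of all genes), and 4 rose and 2 fell under siTAZ (21.4%, against 13.3%). They included ABCC8, a subunit of the potassium channel of insulin-secreting cells, from 8.57 to 12.1 CPM under siTAZ (0.49 ± 0.09, adjusted p = 0.000146). SLCO2B1, an organic anion uptake carrier, rose under siTAZ from 7.69 to 12.7 CPM (0.74 ± 0.09, 3.92e-07), and GPX2, a glutathione peroxidase, from 527 to 680 CPM (0.36 ± 0.04, 1.33e-08). GSTA4 rose under either pool there as well (0.34 ± 0.07, 0.00252, and 0.39 ± 0.07, 0.000177). Between the control lines, 17 of 24 glutathione supply genes were lower and 4 higher in H1299 (87.5%, median -2.65 against 0.02 for all genes).

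The authors' deposited table gave ABCC3 a log2 change of 2.11 under siTAZ (adjusted p = 1.30e-07) and 1.00 under siYAP (adjusted p = 0.0339) in H1299. In A549 the authors' deposited table gave 0.18 for each pool (adjusted p = 0.000123 under siTAZ and 0.000338 under siYAP), 0.17 for ABCC4 (0.016) and 0.14 for ABCC1 (0.00422) under siTAZ. For ABCC10 in H1299, the authors' deposited table had 0.40 under siYAP (0.00459) and -0.26 under siTAZ (0.0821), and for ABCB1 -0.66 under siYAP (0.00844). Several changes called here with the block did not pass in the authors' deposited table: in H1299 ABCC2 (0.143) and ABCC5 (0.0617) under siYAP, ABCC4 (0.0607), ABCB1 (0.294) and ABCG2 (0.127) under siTAZ, and in A549 ABCC5 under siYAP (0.221). The same held between the H1299 pools for ABCC5 (0.0525), ABCB1 (0.293) and ABCG2 (0.146) in the authors' deposited table. Between siTAZ and siYAP in A549, the authors' deposited table had ABCC10 at -0.3 (0.0353) and ABCC2 at -0.12 (0.0314). For ABCC1 the authors' deposited table had 0.12 there (0.0426), a change not called here with the block (edgeR adjusted p = 0.0594).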

How the data were processed

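Poly(A) RNA of 18 libraries (6 groups of 3) was sequenced. The submitters' processing notes name cutadapt, STAR 2.4.2a, DESeq2 and the GRCh38 build. Which tool counted reads, with which annotation and strand setting, is not given in the sources used here. For each line, 1 table of the authors holds raw counts by gene symbol, 18978 genes for H1299 and 20335 for A549. The same tables hold deposited normalized counts (a signal scaled per library), deposited log2 values (named as regularized in H1299 and batch-adjusted in A549) and the authors' log2 fold changes with p-values. Only the raw counts were analysed, and the authors' fold changes were quoted beside them.

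The 8 genes and the gene lists were chosen with earlier results of these data known. All 8 members were named in every comparison, and from each list up to 3 genes with the smallest adjusted p among those called. Genes like ABCC3 were taken by rank of correlation.

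Each line was fitted over its 9 libraries with edgeR 4.0.16 in R 4.3.3 (filterByExpr by group, TMM, quasi-likelihood F test, Benjamini-Hochberg over all genes tested: 15775 in H1299 and 16008 in A549). Line differences and the control lines were tested in a joint fit of 15816 genes. CPM are counts over the TMM-scaled library size. Replicates differed by more than sampling noise (chi-square per degree of freedom of 5.97 to 27.5). The replicate numbers were taken to pair libraries because the deviations of same-numbered libraries from their group means correlated above 0.1 in each pair (0.108 to 0.383 in H1299, 0.384 to 0.729 in A549). Pairs with different numbers ran from -0.324 to 0.16 in H1299 and from -0.55 to 0.279 in A549. The ranges of same and different numbers thus overlapped in H1299, where the pairing by correlation is less clear, and not in A549. The sample descriptions also give same-numbered libraries of a line a shared prefix (A, B or C in H1299, IQ, IY or IZ in A549). On simulated data with 200 genes changed 2-fold, the step recovered 99% to 100% of them in H1299 and 87.5% to 89% in A549. In the joint fit it recovered 75.5% to 91.5%. False calls numbered 4 to 15 per comparison. Smaller changes were not simulated, and knockdown changes of all members except ABCC3 in H1299 were below 2-fold. Rates by expression level or with deviations shared by replicate number were not computed. The recovery of small changes, or of scarce genes such as ABCC2 and ABCG2 in H1299, is therefore not known. Alternatives were the block, DESeq2 1.42.0 with and without it, DESeq2's scaling in place of TMM, no filter, only the libraries compared, and leaving out each library or replicate number. DESeq2 with the block, the blocked fits that left out a library and the longest-transcript length were added after seeing the data. Symbols were matched to GENCODE release 29 (97.6% in each table).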

Additional observations from a re-analysis of the deposited data

Results flagged for a closer look

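The response to knockdown was compared between the lines by an interaction term in the joint fit. Without the block, 0 of 8 members were called for the siYAP effect (0.0822% of all genes) and 1 of 8 for the siTAZ effect (0.379%). For the siYAP effect DESeq2 also called 0 members. In edgeR without the block, 1 member stood at an unadjusted p below 0.05 for that effect, a level at which the share of all genes was not counted. With the block, 3 of 8 were called for each (10.8% and 17.7% of all genes). For ABCC3, the siTAZ effect was larger in H1299 by 1.94 ± 0.29 on the log2 scale (edgeR adjusted p = 0.0164 without the block). With the replicate block, the siYAP effect on ABCC3 was larger in H1299 by 0.82 ± 0.24 (adjusted p = 0.0329), lost with DESeq2 fitted with the block (0.81, 0.181) and called in 9 of 18 fits that each left out 1 library, with the lowest value, 0.57 (adjusted p = 0.205), without siControl 1 of H1299. The siYAP effect on ABCC5 was larger by 0.29 ± 0.09 (adjusted p = 0.0483), lost with DESeq2 fitted with the block (0.0501) and called in 4 of 18 such fits, and that on ABCB1 differed by -0.57 ± 0.15 (adjusted p = 0.019), called in 13 of 18. The siTAZ effect on ABCC4 differed by -0.53 ± 0.09 (adjusted p = 0.000604), called in 18 of 18. For ABCG2 it differed by 0.71 ± 0.16 (adjusted p = 0.00504), called in 16 of 18, and lost without siControl 1 (0.57, 0.0663) or siTAZ 1 (0.44, 0.0772) of H1299. Apart from ABCC3 under siTAZ, none of these was called without the block, where adjusted p ran from 0.152 to 0.714. Groups here had 3 libraries, too few to tell whether a library that stands apart is an outlier.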

How the results depend on the processing

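Over the 72 values of 8 genes in 9 comparisons, 2351 alternatives were computed. Of these, 2065 stayed on the same side of the threshold, and among them uncalled values could change sign, as for ABCG2 in H1299 siYAP. A further 243 passed where the value as reported did not, 43 no longer passed, and 0 reversed a called direction. With the replicate block, called members went from 3 to 5 in H1299 siYAP, from 1 to 5 in H1299 siTAZ, from 2 to 5 between the H1299 pools, from 0 to 2 in A549 siYAP, from 0 to 3 in A549 siTAZ, from 0 to 2 between the A549 pools, from 0 to 3 for the line difference in the siYAP effect and from 1 to 3 for that in the siTAZ effect. The block also moved called genes in the same order from 2625 to 4461, 3680 to 5606, 1846 to 3399, 1 to 909, 1 to 2134, 2 to 1127, 13 to 1712 and 60 to 2797. DESeq2 without the block called 2 members and 3763 genes in H1299 siTAZ. It called 4, 46 and 18 genes in the A549 comparisons and 124 and 316 genes for the line differences. DESeq2 with the block called 4 members and 4490 genes in H1299 siTAZ, and 4 members and 2712 genes between the H1299 pools. Called members were 1, 3 and 3 in A549 and 1 and 3 for the line differences. Called genes were 377, 1132 and 525 in A549 and 1486 and 2277 for the line differences. With the block, leaving out 1 library gave 3 to 6, 3 to 6 and 3 to 5 members in the H1299 comparisons (siYAP, siTAZ, between the pools), 1 to 3, 2 to 4 and 1 to 4 in A549, 0 to 4 and 2 to 3 for the line differences and 8 to 8 between the control lines. Called genes then ranged from 2122 to 5014, 3060 to 6389 and 1674 to 3963 in H1299, 164 to 1027, 1057 to 2142 and 308 to 1276 in A549, 805 to 2988 and 1376 to 3889 for the line differences and 12071 to 13036 between the control lines. Leaving out 1 library or 1 replicate number without the block, called members ranged from 0 to 6 in H1299 siYAP, 1 to 3 in H1299 siTAZ, 1 to 4 between the H1299 pools, 0 to 0 in each A549 comparison, 0 to 1 and 0 to 2 for the line differences and 7 to 8 between the control lines. Called genes ranged from 34 to 4430, 144 to 5267 and 190 to 2945 in H1299, 0 to 1, 0 to 4 and 0 to 3 in A549, 0 to 130 and 0 to 254 for the line differences and 10396 to 11934 between the control lines. The causes of these shifts were not tested. With 3 libraries per group, changes of ABCC2 and ABCG2 in H1299 rest on 30 to 147 reads per library.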
